A study of Mus musculus with 2 samples.

Results

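The miR-34 and miR-449 family comprises 6 miRNA genes of the mouse, and was described here in embryonic kidney from small RNA sequencing. The members were taken by name: Mir34a, Mir34b, Mir34c, Mir449a, Mir449b and Mir449c, each matched to its Ensembl identifier in the deposited tables. All 6 had a row among the 1973 miRNA genes counted, and 4 of them had at least 10 reads in each library, the level taken as detected; Mir449b and Mir449c had none. The tissue came from B6NCrl embryos at 14.5 days of gestation, with no genetic change or treatment named. There was 1 group with 2 biological replicates, each of 2 kidneys and collected on different days, and the size range of the libraries was below 30 nucleotides. The labels name both a single pup and pooled sexes, and give both samples the same donor identifier, so the number of embryos behind each library is not settled, and the spread between the replicates may be partly technical. There is no contrast between conditions. The comparisons below are between members, between their loci, and between the 2 libraries.

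A miRNA is cut from a hairpin transcript to a mature strand that guides a silencing complex to messenger RNAs, which it recognises mainly through its seed, bases 2 to 8 from the 5′ end. Mir34a and the Mir34b and Mir34c pair are known as direct transcriptional targets of the tumour suppressor p53, and the family represses cell cycle and survival genes. The miR-449 hairpins are known from cells with many motile cilia, in airway, brain ventricle and reproductive tract, where miR-34 and miR-449 act together in making the cilia. Cells of the kidney tubule carry a primary cilium instead.

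The 5p sequences of 4 members are shown first, because the seed is what joins the loci into 1 family; miR-34c-5p and the mature products of Mir449b were not analysed here. The sequences were read from RefSeq on GRCm38.p6, with the seed in capitals, and lie at chr4:150068473-150068494 (plus strand, miR-34a-5p), chr9:51103610-51103632 (minus, miR-34b-5p), chr13:113037549-113037570 (plus, miR-449a-5p) and chr13:113036008-113036028 (plus, miR-449c-5p).
miR-34a-5p: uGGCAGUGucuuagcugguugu
miR-34b-5p: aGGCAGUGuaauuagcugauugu
miR-449a-5p: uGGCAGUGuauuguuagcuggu
miR-449c-5p: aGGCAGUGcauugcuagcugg
Of the 1738 mature sequences in the RefSeq table, 4 held this seed (0.230%), and they are the 4 shown. The count leaves out miR-34c-5p and the products of Mir449b, and says nothing of their seeds. No gene outside the family held the seed in that table. Past the seed the sequences differed, but all 4 hold the stretch uagcug, not always at the same distance from the 5′ end. Aligned from the 5′ end without gaps, miR-34a-5p and miR-449a-5p were identical at 15 of 22 positions, miR-449a-5p and miR-449c-5p at 18 of 21, and miR-34a-5p and miR-34b-5p at 11 of 22. Such a count falls where 1 sequence is shifted against the other, so these values do not rank how alike the sequences are.

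The 3p arms of the hairpins had no seed common to the family. Mir34b and Mir34c share a seed on their 3p arm that the Mir34a 3p arm does not have. These sequences lie at chr9:51103574-51103595 and chr9:51103044-51103065 on the minus strand and at chr4:150068517-150068537 on the plus strand.
miR-34b-3p: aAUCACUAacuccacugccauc
miR-34c-3p: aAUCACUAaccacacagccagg
miR-34a-3p: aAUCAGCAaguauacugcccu
The first pair were identical at 17 of 22 positions, without a break from base 2 to base 10, and no other mature sequence in the table held their seed. The 3p arms of Mir449a and Mir449c, by contrast, had different seeds although they come from 1 locus, and were identical at 7 of 22 positions. The counts are per gene and include both arms, so which arm supplied the reads of a member is not known from them. The longest run of bases that a member's hairpin shared with any other of the 2202 annotated hairpin transcripts was between 11 and 14 bases. That is shorter than the mature sequences, which are 21 to 23 bases long. Reads that mapped to several places in the genome are in no gene's count, and only annotated hairpins were compared here.

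The family sits at 3 loci that differ in their surroundings (mm10, GENCODE M21). Mir34a (ENSMUSG00000065493.1) lies at chromosome 4, 150068454 to 150068555, on the plus strand. It shares its last 17 bases with Gm37795, an unclassified transcript of the same strand, and the nearest protein-coding gene is Gpr157, 18.8 kb downstream. Mir34b (ENSMUSG00000065492.1; chromosome 9, 51103562 to 51103645) and Mir34c (ENSMUSG00000065587.1; 51103034 to 51103110) lie on the minus strand with 451 bases between them, Mir34b first in the direction of transcription. On the other strand both fall between exons 1 and 2 of a transcript of Btg4, a gene known from oocytes. The miR-449 hairpins lie on the plus strand of chromosome 13 in the order Mir449c (ENSMUSG00000076146.1; 113035983 to 113036091), Mir449b (ENSMUSG00000078027.1; 113037419 to 113037498) and Mir449a (ENSMUSG00000065575.1; 113037534 to 113037624). All 3 are in the intron between exons 2 and 3 of Cdc20b transcripts on the same strand. Mcidas and Ccno, regulators of the multiciliated cell programme, end 35.6 and 45.2 kb upstream of Mir449c.

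**Figure D1:**
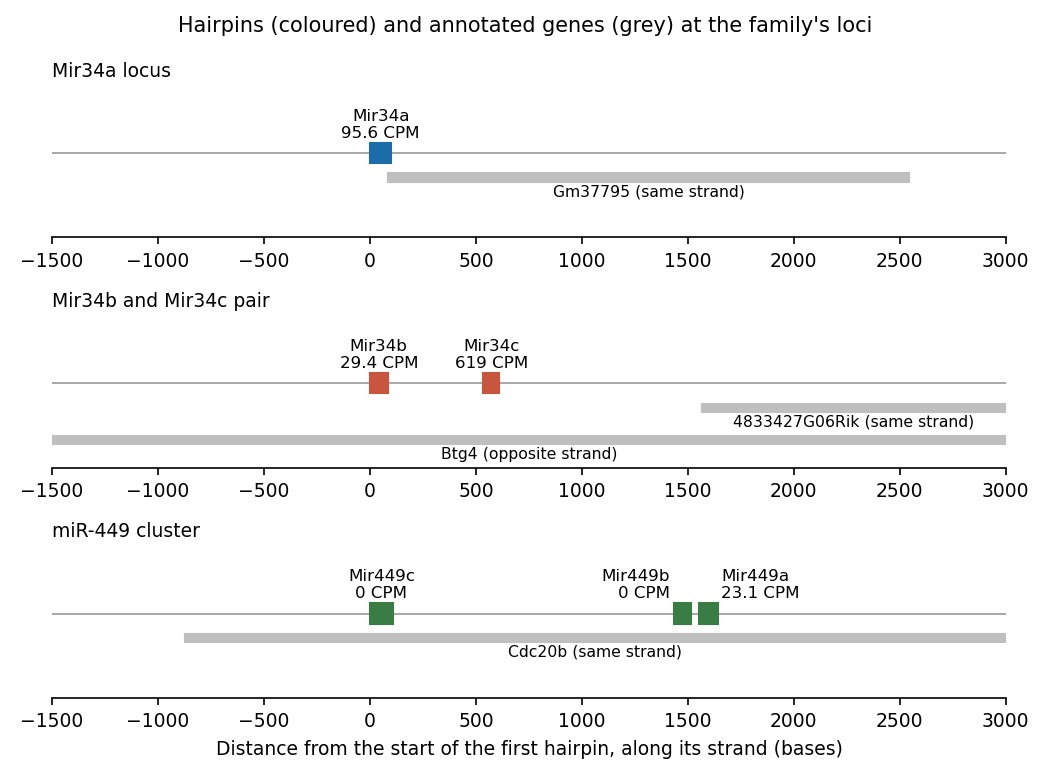
Map of the 3 loci, with distance in bases from the start of the first hairpin along its own strand on the x axis, hairpins as coloured boxes labelled with their mean CPM, and annotated genes as grey bars cut at the edges of the panel. The Mir34b and Mir34c hairpins lie 451 bases apart and differ in level, at 29.4 and 619 CPM, and of the miR-449 hairpins Mir449a alone had reads.

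Levels are given as CPM, reads per 1000000 own-strand miRNA gene counts of the same library, which were 5202588 in replicate 1 and 3683978 in replicate 2. A small RNA read covers a whole mature miRNA, so levels of different genes were not divided by length; dividing by the length of the hairpin left the order of the members the same. Intervals are 95% exact Clopper-Pearson intervals. They cover counting error only, and without molecular identifiers PCR copies are counted as separate reads.

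Mir34c was the most abundant member. It had 3295 reads in replicate 1 and 2224 in replicate 2. These came to 633 CPM (interval 612 to 655) and 604 CPM (579 to 629), with a mean of 619 ± 20.96 CPM (SD, n = 2). The replicates lay close together and their intervals overlapped. By mean CPM Mir34c held rank 99 of the 345 detected miRNA genes, between Mir205 of stratified epithelium at 668 ± 52.5 CPM and Mir188 at 618 ± 30.7 CPM. Its distance from Mir188, 0.401 CPM, was less than the SD of either gene.

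Mir34a, the member best known as a p53 target, was next. Its 527 and 331 reads gave 101 CPM (interval 92.8 to 110) in replicate 1 and 89.8 CPM (80.4 to 100) in replicate 2, a mean of 95.6 ± 8.09 CPM (SD, n = 2). That was rank 182, close to the middle of the detected genes, whose median was 114 CPM. Its neighbours in rank were Mir672 at 96.7 ± 31.5 CPM and Mirlet7c-1 at 95.2 ± 14.5 CPM, and neither differed from it by more than its spread. The mature let-7c has a second genomic copy, so the count of Mirlet7c-1 is uncertain.

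Mir34b and Mir449a stood lowest among the detected members. Mir34b had 166 and 99 reads, or 31.9 CPM (27.2 to 37.1) and 26.9 CPM (21.8 to 32.7), with a mean of 29.4 ± 3.56 CPM (SD, n = 2). Mir449a had 105 and 96 reads, or 20.2 CPM (16.5 to 24.4) and 26.1 CPM (21.1 to 31.8), with a mean of 23.1 ± 4.16 CPM. Mir34b was the higher of these in replicate 1, where the intervals did not overlap, and almost level with Mir449a in replicate 2, where they did. On the log2 scale Mir34b exceeded Mir449a by 0.35 ± 0.44 (SD, n = 2), so the order of this pair is not larger than the spread between replicates. They held ranks 232 and 248. Mir34b stood between Mir137 at 30.1 ± 13.2 CPM and Mir702 at 28.6 ± 4.38 CPM, and Mir449a between Mir412 at 23.4 ± 0.253 CPM and Mir539 at 22.7 ± 0.243 CPM.

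Mir449b and Mir449c had 0 reads in both replicates. A count of 0 allows up to 3 reads, which is 0.577 CPM in replicate 1 and 0.814 CPM in replicate 2. With either gene set at that limit of 3 reads, Mir449a was at least 35-fold higher in replicate 1 and at least 32-fold higher in replicate 2, leaving aside the counting error of Mir449a itself. A count of 0 was common in the tables, with 1257 of the 1973 genes (63.7%) at 0 in both replicates.

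**Figure D2:**
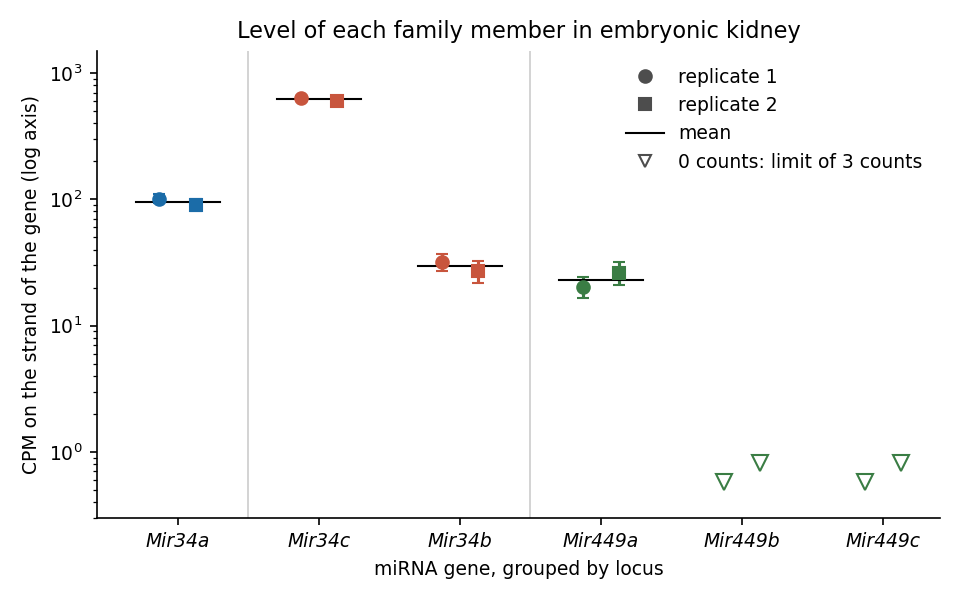
Level of each member in CPM on a log axis, with replicate 1 as circles, replicate 2 as squares, exact 95% counting intervals as bars, the mean as a black line and, for a count of 0, an open triangle at the limit of 3 reads. Mir34c is the highest member in both replicates, at 633 and 604 CPM, and Mir449b and Mir449c have limits of 0.577 and 0.814 CPM.

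Compared by locus, the Mir34b and Mir34c pair had the highest level, Mir34a was intermediate and the miR-449 cluster was lowest, in both replicates. Summed levels were 665 and 631 CPM for the pair (mean 648 ± 24.5 CPM, SD, n = 2), 101 and 89.8 CPM for Mir34a, and 20.2 and 26.1 CPM for the cluster. The pair exceeded Mir34a by 6.57-fold in replicate 1 and 7.02-fold in replicate 2, a log2 difference of 2.76 ± 0.07 (SD, n = 2). Mir34a exceeded the cluster by 5.02-fold and 3.45-fold, a log2 difference of 2.06 ± 0.38. Between the pair and the cluster the difference was 4.82 ± 0.32 on the log2 scale, 33.0-fold in replicate 1 and 24.2-fold in replicate 2. Each of these differences was several times its SD. With 2 values a locus, no exact permutation test can reach 0.05, and none was run.

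The shares of the pair and of Mir34a in the family were similar in the 2 libraries, and that of the cluster was higher in replicate 2. Whether the cluster's share differed between the libraries was not tested. The pair held 84.6% of the family's reads in replicate 1 (interval 83.4 to 85.7) and 84.5% in replicate 2 (83.1 to 85.8). Mir34a held 12.9% (11.9 to 13.9) and 12.04% (10.8 to 13.3). The cluster held 2.57% (2.10 to 3.10) and 3.49% (2.84 to 4.25), and these intervals overlapped at their ends. Mir34c alone made up 80.7% ± 0.261 of the family's reads (SD, n = 2). The whole family came to 0.0787% of miRNA gene counts in replicate 1 (0.0763 to 0.0811) and 0.0746% in replicate 2 (0.0719 to 0.0775).

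Within the pair the reads were very unequal although the hairpins are neighbours on 1 strand. Mir34c held 95.2% of the pair's reads in replicate 1 (interval 94.4 to 95.9) and 95.7% in replicate 2 (94.8 to 96.5). It exceeded Mir34b by 19.8-fold and 22.5-fold, a log2 difference of 4.40 ± 0.13 (SD, n = 2). To give this a scale, all consecutive miRNA genes of 1 strand with at most 2000 bases between them were listed, a comparison chosen after the values were seen. In the 74 such pairs with both genes detected the median absolute log2 difference was 2.81, and 21 pairs (28.4%) differed by more than Mir34b and Mir34c. Of the 112 pairs with at least 1 gene detected, 19 (17.0%) paired a detected gene with 1 at 0 in both libraries, as Mir449a and Mir449b did. Most of the 19, such as Mir669e with Mir669b, lie in a cluster of repeated miRNA genes, and the 19 include Mir449a with Mir449b. Unequal counts of neighbours were thus frequent in these libraries. Reads mapping to several places are not counted, which can lower the count of a gene whose sequence has further genomic copies. Mirlet7c-1 is such a gene, and its log2 difference from Mir99a was 8.52 in size. Both shares may therefore be too high as a scale for hairpins without such copies. What made reads of neighbouring hairpins unequal was not tested.

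None of the 4 detected members passed the exact binomial test of one library against the other, which was run across all detected genes. The log2 ratio of replicate 2 over replicate 1 was -0.06 for Mir34c (exact interval -0.14 to 0.01, Benjamini-Hochberg adjusted p = 0.175 in the exact test). It was -0.17 for Mir34a (-0.37 to 0.03, exact test, adjusted p = 0.166) and -0.24 for Mir34b (-0.62 to 0.13, adjusted p = 0.269). Mir449a was the member with a ratio above 0, at 0.37 (-0.04 to 0.79, exact test, adjusted p = 0.123). The 3 miR-34 genes were thus slightly lower and Mir449a slightly higher in replicate 2, and the interval of every ratio included 0. Of the 4, 0 had an adjusted p below 0.05 and 0 an unadjusted p below 0.05 in the exact binomial test. In edgeR's exact test, at an assumed coefficient of variation of 0.2, the count was also 0. Ratios as small as these could not pass at that assumed spread, so that count carries no information. Across all 345 detected genes, 53.6% had an adjusted p below 0.05, and 3.19% also differed by 1 or more on the log2 scale, a rule that 0 members met. At that share, 0 of 4 says little about the members. The test passes smaller ratios in genes with more reads. In size, the ratio of Mir449a was larger than that of 69.9% of detected genes, of Mir34b 52.2%, of Mir34a 38.6% and of Mir34c 17.1%. The test compares these libraries with each other, not conditions. With DESeq2 size factors the Mir34c ratio of -0.10 passed (exact binomial test, adjusted p = 0.0260), the lowest over its alternatives, which reached 1.

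**Figure D3:**
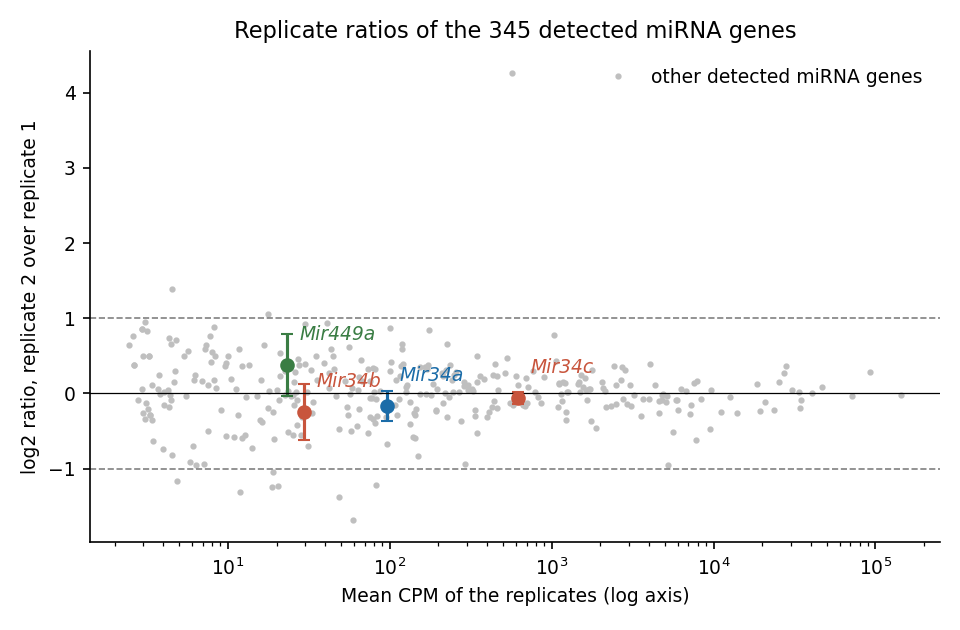
Log2 ratio of replicate 2 over replicate 1 against mean CPM (log axis) for the 345 detected genes, with members coloured by locus and shown with exact 95% intervals, and dashed lines at a ratio of 1 in size. Mir34a, Mir34b and Mir34c lie just below 0, Mir449a lies at 0.37, and each interval includes 0.

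The libraries were otherwise not alike in every respect, and markers of other tissues are given here beside the members. The level of Mir122, which marks hepatocytes, was 56.3 CPM in the first replicate and 1074 CPM in the other. The erythroid genes Mir451a and Mir144 summed to 154 and 73.0 CPM. All 5 genes of the epithelial miR-200 family were detected, summing to 26799.5 and 23488 CPM. So were 4 of 4 listed tubule genes, Mir192, Mir194-2, Mir204 and Mir30a, but their ratios between the libraries went both ways. The log2 ratio of replicate 2 over replicate 1 was 0.85 for Mir192 and 0.87 for Mir194-2. It was -0.20 for Mir204 and -0.25 for Mir30a. Mir194-1 and Mir215, relatives of Mir194-2 and Mir192, were not on that list and were not detected, with 3 and 4 and with 5 and 0 reads. Mir202, of the gonad, was at 0 in both replicates. Of 5 counted genes for the neural miR-124 and miR-9, none was detected and their sum was 1.35 and 1.90 CPM; these miRNAs have several genomic copies each, and reads mapping to several places are not counted. The part of other cell types in the levels of the family was not tested. In whole tissue, fewer cells of a type and less RNA per cell cannot be told apart.

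The family was set beside 10 other miRNA genes known to be induced by p53 or matured with its help. Of these, 8 were detected, against 345 of all 1973 genes (17.5%), and Mir194-1 and Mir215 were not, with 3 and 4 and with 5 and 0 reads. The 8 had a median of 940 CPM, and the median over all detected genes was 114 CPM. The list was chosen with earlier results of these data known, so these values describe the list and test nothing. Mir143, of smooth muscle and stroma, led the list at 18645 ± 1069 CPM, and Mir200c, of epithelium, followed at 5062 ± 308 CPM. Mir16-1, of the cell cycle, was at 2167 ± 202 CPM, and Mir107, which lies in a pantothenate kinase gene, was at 1161 ± 57.8 CPM. Mir141, a neighbour of Mir200c, at 719 ± 26.1 CPM was the nearest of the list above Mir34c. Mir145a, the neighbour of Mir143, was below Mir34c at 383 ± 35.8 CPM. The tubule genes Mir192, at 174 ± 70.1 CPM, and Mir194-2, at 100.3 ± 41.3 CPM, were the lowest of the detected genes of the list, and Mir34a lay within the spread of Mir194-2. Mir16-1 and Mir194-2 have a second genomic copy of their mature sequence, so their counts are uncertain. Between the replicates, 4 of the 8 were higher and 3 lower in replicate 2 at an adjusted p below 0.05 in the exact binomial test, and 0 differed by 1 or more on the log2 scale. Mir192 and Mir194-2 had the largest ratios, at 0.85 and 0.87. The list shows how abundant such genes were in this tissue and carries no measure of p53 itself, since messenger RNAs were not in these libraries.

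**Figure D4:**
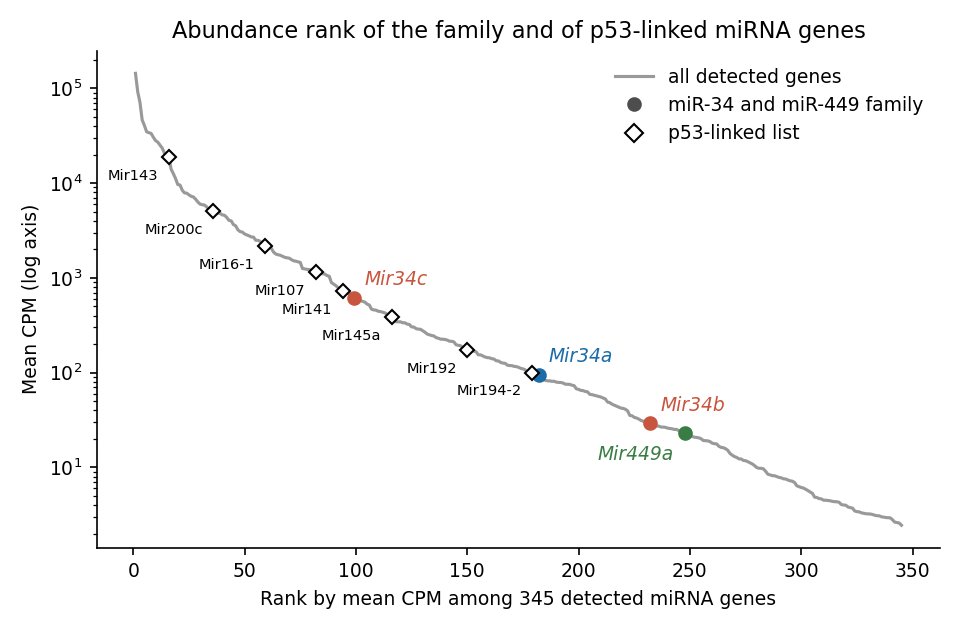
Mean CPM (log axis) against rank for the 345 detected genes, with family members as filled circles and the 8 detected genes of the p53-linked list as open diamonds. Mir34c lies at rank 99, between Mir141 and Mir145a. Mir34a, Mir34b and Mir449a lie at ranks 182, 232 and 248, lower than every diamond, with Mir34a just below Mir194-2 and within its spread.

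Reads of the members came almost wholly from the strand of the hairpin. On the opposite strand Mir34b had 1 read in replicate 2, which was 1.00% of its reads on both strands in that library, and Mir34a, Mir34c and Mir449a had 0 in both. Over the family that was 0 of 4093 reads in replicate 1 and 1 of 2751 in replicate 2 (0.0364%, interval 0.000920 to 0.202). Over all miRNA genes the opposite strand held 1.93% of assigned reads in replicate 1 and 1.80% in replicate 2. Mir34b and Mir34c, which lie within Btg4 on its other strand, thus had 0 or 1 read each from the strand of that gene.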

How the data were processed

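The authors deposited the raw counts of reads for every miRNA gene, 1 table a library, not normalized; per the deposited file descriptions, reads were aligned to mm10 and annotated with GENCODE M4. The aligner is not given in the sources used here, nor is the program that counted. Column 3, read as the strand of the gene, was used; columns 3 and 4 sum to the first count column. Symbols came from GENCODE M21 (1894 of 1973 identifiers matched), and sequences from RefSeq (GRCm38.p6). The 4 tally lines that name no gene were left out; reads mapping to several places were 28.3% and 27.5% of each library.

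CPM, SDs and exact Clopper-Pearson intervals were computed with scipy 1.17.1 and pandas 2.3.3. Libraries were compared by a two-sided exact binomial test with edgeR 4.0.16 TMM factors. Its p-values were Benjamini-Hochberg adjusted over 345 genes with at least 10 counts in each replicate, and measure counting error only. The test was tried on simulated counts that held counting error only, so that trial does not cover further spread between replicates. Alternatives used DESeq2 1.42.0 size factors, totals alone, other count minimums, unstranded counts, single replicates, other denominators and edgeR's exact test. Members, lists and tests were chosen with earlier results of these data known. Named genes were the members, their neighbours in rank, a p53-linked list, cell type markers and genes at the loci.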

Additional observations from a re-analysis of the deposited data

How the results depend on the processing

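Of 93 recomputed values, 84 were labelled as the same and none reversed. The label meant the same side of the threshold, within 1 SD of the reported value or, for counts of genes, within a fixed fold. With 2 replicates, either replicate alone always lies within 1 SD of their mean, and levels of 0 cannot move. Nor can the share of Mir449a in its cluster, which was 100% because the other members had 0 reads. For those alternatives, which are among the 84, the label was fixed in advance and carries no information, so 84 of 93 does not measure robustness. With DESeq2 size factors in place of TMM, 1 member (Mir34c) had an adjusted p below 0.05, and 0 had in the other fits of the replicate ratio. Among those fits, edgeR's exact test could not pass ratios this small at its assumed spread. Genes called between the replicates fell from 11 to 2 in edgeR's exact test with an assumed coefficient of variation of 0.2. Counts divided by hairpin length, an alternative added after the data were examined, moved the difference between the Mir34b and Mir34c pair and Mir34a from 2.76 to 3.16 on the log2 scale. Leaving the most abundant gene, Mir10a, out of the total raised the family's share from 0.0767% to 0.0896%. Adding multimapping reads to the total lowered Mir34c to 402 CPM, Mir34a to 62.1 CPM, Mir34b to 19.1 CPM and Mir449a to 15.1 CPM, by construction in the same proportion within a library. The order of the 4 detected members was the same with unstranded counts, in each replicate alone and per hairpin length. No paired analysis was possible because there was 1 group. Between 96 and 166 reads a library lie behind Mir34b and Mir449a, which limits their comparison.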
